A study of Mus musculus with 10 samples.

Results

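The macrophage lineage genes were a set of 39 genes chosen by name because they are known markers or working parts of macrophages and other myeloid cells. Fc receptors, C-type lectin receptors, Toll-like receptors, chemokine receptors, MHC, complement and cathepsin genes were not included. A member was any row whose gene symbol equalled one of the 39 names. The rule itself used no measured value, but the names were chosen with earlier results of these data known. The libraries listed 18384 genes in all, of which 14009 passed the filter on low counts. All 39 members were listed and all 39 passed.

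The samples were primary cultures of mouse adipocyte precursors (APs), the cells that give rise to fat cells, from subcutaneous white adipose tissue of C57BL/6J mice. Magnetic columns had removed cells carrying CD45 (a leukocyte surface protein) or CD31 (an endothelial one) and had then retained SCA-1-positive cells. The controls were left without cytokine, and the other cultures received interleukin (IL)-4 from the day after seeding. Poly-A RNA was sequenced at 4 days from 3 control and 3 IL-4 cultures, labelled replicates 1 to 3 and 4 to 6, and small RNA was sequenced at 2 days from 2 control and 2 IL-4 cultures. The IL-4 dose and the age and sex of the mice are not given in the sources used here. The series describes the replicates as biological without saying which came from separate animals, so the p-values measure the spread between these cultures.

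Macrophages are resident phagocytes of adipose tissue. They depend on signalling through the CSF1 receptor, are specified by the transcription factor PU.1 (encoded by Spi1), and engulf dead cells and particles through dedicated receptors. IL-4 is known to drive macrophages into an alternatively activated state, acting through the transcription factor STAT6. In RNA from a whole culture, a smaller number of macrophages and less RNA per macrophage cannot be told apart. Such RNA also does not show which cells of the culture a transcript came from.

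The gene set was abundant in cultures that had been depleted of CD45-positive cells. Its 39 members took 0.832%, 0.838% and 0.982% of all counts without IL-4, against 0.541%, 0.566% and 0.648% with it, so the groups did not overlap. Much of the gap came from 1 gene, Lyz2. Without it the shares were 0.584%, 0.594% and 0.663% against 0.475%, 0.495% and 0.555%, which did not overlap. These shares are of raw library totals, a scaling that moves the median log2 fold change of all genes to -0.17. The scaling factors used in the tests below were 1.06, 1.05 and 1.07 in control against 0.932, 0.933 and 0.961 with IL-4. Scaling by them narrows the gap, and without Lyz2 the groups then overlap, so the separation without Lyz2 holds for raw totals only. In summed FPKM the groups also overlapped once Lyz2 was left out. In the controls, 12 members stood among the 1000 genes with the highest FPKM (fragments scaled for transcript length and library depth), and Lyz2 ranked 5 of all genes. The defining macrophage genes Adgre1, Cd68, Csf1r and Lyz2 each measured 39.45 FPKM or more in every library.

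**Figure D1:**
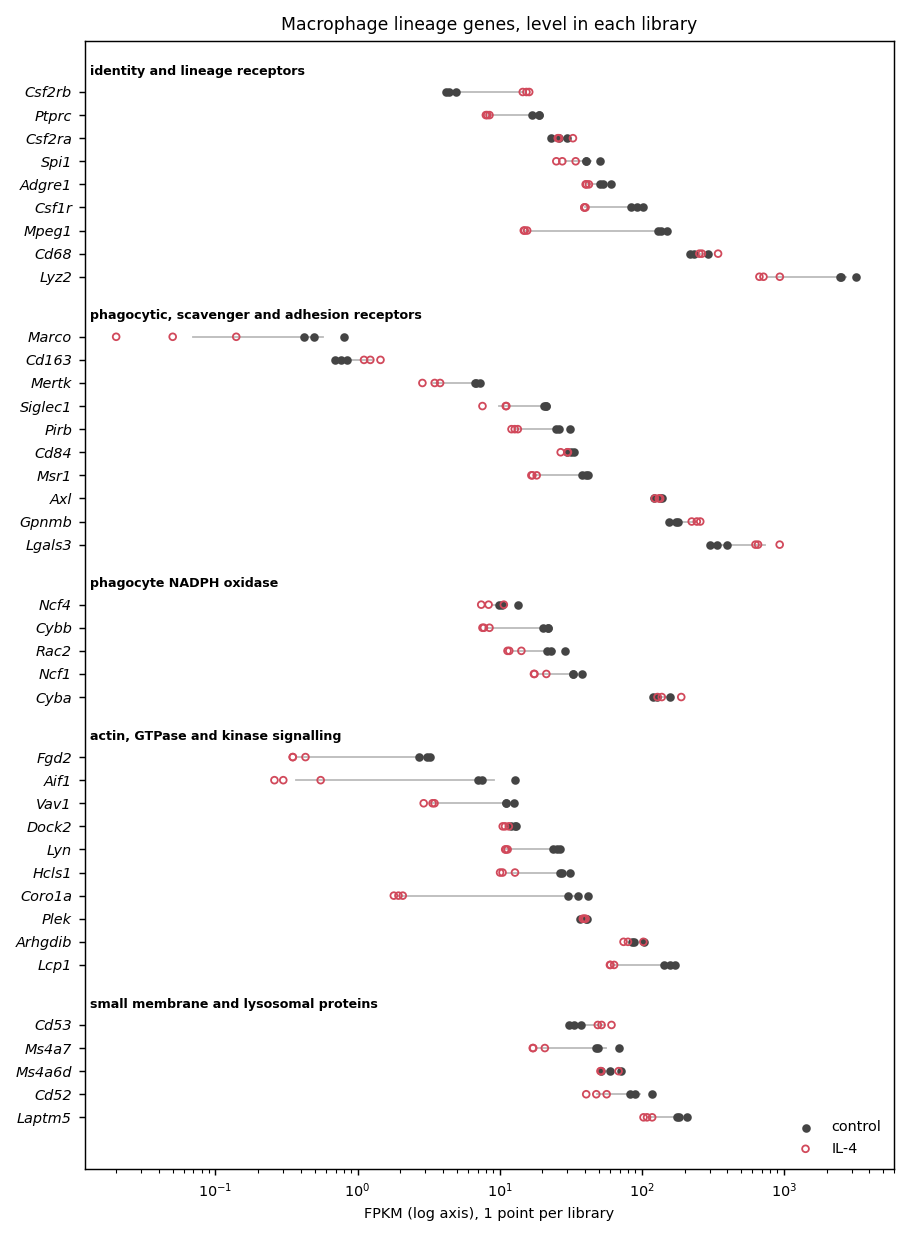
FPKM of each of the 39 macrophage lineage genes on a log axis, with 1 filled point per control library and 1 open point per IL-4 library and a line joining the group means, in blocks by role. In control, Lyz2 lies highest at 2738 FPKM, while Marco and Cd163 lie lowest at under 1 FPKM.

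With IL-4 the set did not move as one. On library-scaled counts (edgeR quasi-likelihood, p-values adjusted by Benjamini-Hochberg across the whole table, called at an adjusted p under 0.05), 24 of 39 members were lower, against 18.4% of all genes, and 5 were higher, against 19.0% of all genes. The other 10 did not pass the test. Beyond 2-fold, 13 members were lower, against 5.26% of all genes, and 2 were higher, against 5.77%. The libraries of the 2 groups did not overlap in normalised count for 30 of 39 members, against 50.4% of all genes. The median log2 fold change (IL-4 minus control) of the members was -0.80 with quartiles of -1.18 and 0.11, and that of all genes was 0.0026 with quartiles of -0.21 and 0.23. These counts and medians describe the list, which was chosen with earlier results of these data known and received no test of its own.

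**Figure D2:**
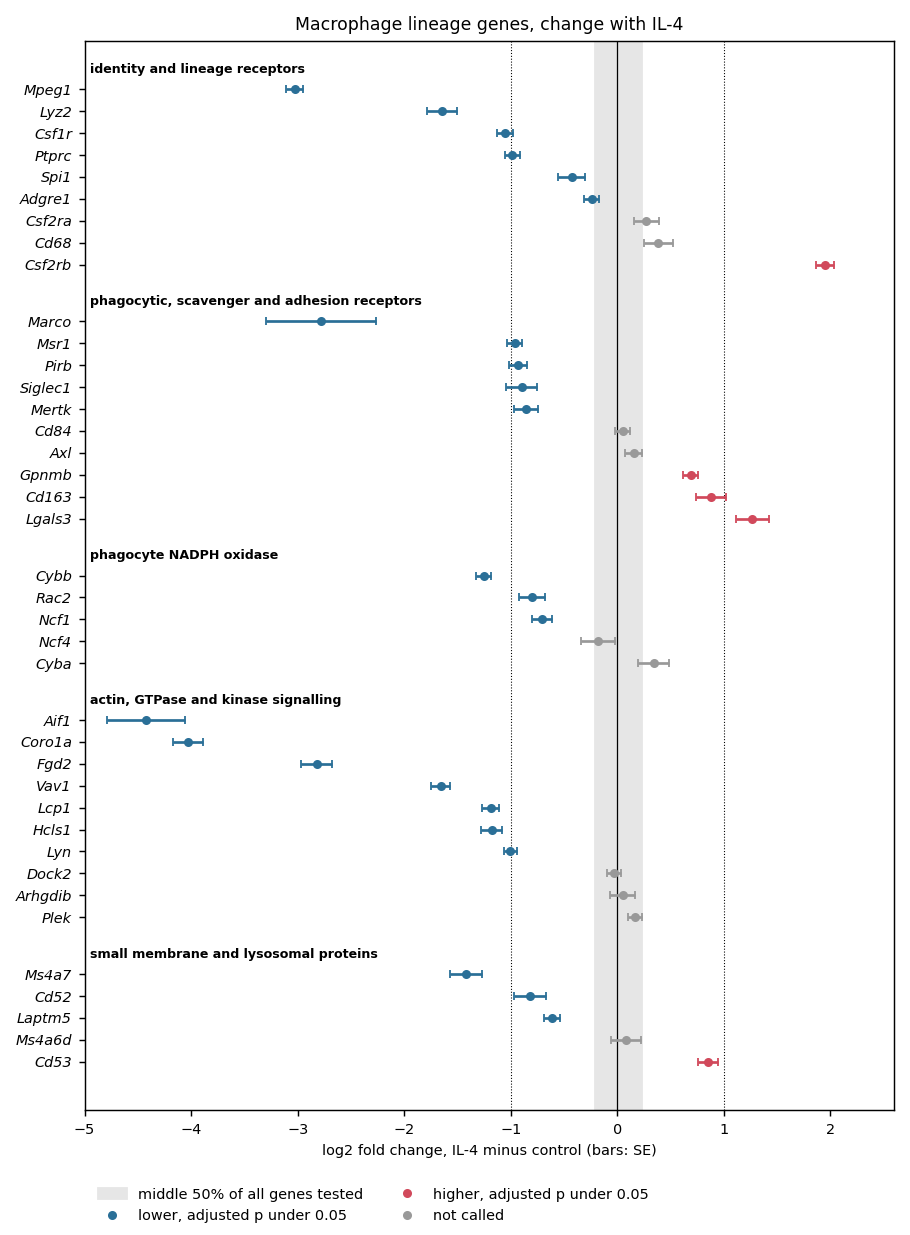
Log2 fold change (IL-4 minus control) of the 39 macrophage lineage genes with its SE, in blocks by role. Blue points passed the test lower, red points passed it higher and grey points did not pass, the shaded band holds the middle 50% of all genes tested, and dotted lines mark 2-fold. The values run from -4.43 for Aif1 to 1.94 for Csf2rb, and all 7 of the actin, GTPase and kinase genes that passed lie at or beyond the left dotted line.

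Among the 9 identity and lineage receptor genes, 6 were lower, 1 was higher and 2 did not pass the test, with a median log2 fold change of -0.43. The steepest fall was that of Mpeg1, which encodes perforin-2, a pore-forming protein of phagocytes. Its counts were 15904, 16827 and 18597 in the controls against 1859, 1939 and 1844 with IL-4. That was a fall of 8.17-fold (log2 fold change -3.03, SE 0.08, edgeR adjusted p = 1.22e-07), with tight replicates in both groups. Lyz2, the lysozyme of macrophages, was the most abundant member. It measured 2522, 2469 and 3225 FPKM in control and 673, 719 and 937 FPKM after IL-4, a 3.13-fold fall (log2 fold change -1.64, SE 0.14, edgeR adjusted p = 5.90e-05). Even the highest IL-4 library stood well below the lowest control.

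Csf1r, the receptor for CSF1 and IL-34 on which most macrophages depend, had counts of 9146, 10117 and 11098 in the controls, against 4349, 4439 and 4374 under IL-4. It fell 2.07-fold (log2 fold change -1.05, SE 0.08, edgeR adjusted p = 2.11e-05). Ptprc, which encodes CD45, the protein used to deplete leukocytes, was nonetheless present at 17.0, 19.0 and 18.9 FPKM in the controls against 8.18, 8.48 and 8.0 FPKM with IL-4. Its 1.98-fold fall (log2 fold change -0.99, SE 0.07, edgeR adjusted p = 1.87e-05) was close to that of Csf1r, and neither gene's groups overlapped.

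A widely used macrophage marker moved little. Adgre1, which encodes F4/80, had counts of 4654, 4816 and 5532 in control and 3704, 3763 and 3928 after IL-4, a log2 fold change of -0.24 (SE 0.07, edgeR adjusted p = 0.0275). The groups did not overlap, but the call was lost when control replicate 2, control replicate 3, IL-4 replicate 4 or IL-4 replicate 5 was left out (edgeR adjusted p from 0.0630 to 0.0897). Cd68, a lysosomal glycoprotein of phagocytes, had counts of 7852, 7385 and 9982 in the controls, against 8694, 9078 and 11813 under IL-4. The groups overlapped, and its log2 fold change of 0.38 (SE 0.13) did not pass the test (edgeR adjusted p = 0.0572), although it passed without control replicate 3 (edgeR adjusted p = 0.0206) and without IL-4 replicate 4 (edgeR adjusted p = 0.0444).

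Spi1, encoding PU.1, had counts of 1619, 1630 and 2048 in the controls against 1017, 1124 and 1403 with IL-4. All IL-4 libraries were below all controls, and the log2 fold change was -0.43 (SE 0.13, edgeR adjusted p = 0.0297). This call too was lost without control replicate 3, IL-4 replicate 4 or IL-4 replicate 5 (edgeR adjusted p from 0.0911 to 0.10).

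Csf2rb ran the other way. It encodes the beta chain shared by the receptors for GM-CSF, IL-3 and IL-5, and had counts of 562, 592 and 669 in control and 2199, 2109 and 1993 after IL-4. The rise was 3.85-fold (log2 fold change 1.94, SE 0.08, edgeR adjusted p = 1.42e-06) and was the largest of any member. Csf2ra, the GM-CSF-specific alpha chain that pairs with it, measured 26.0, 23.1 and 29.9 FPKM in the controls, against 26.2, 25.7 and 32.8 FPKM under IL-4. The groups overlapped, and the log2 fold change of 0.27 did not pass (edgeR adjusted p = 0.102). In the controls the FPKM of Csf1r was 20.6 ± 0.51 times that of Csf2rb (SD, n = 3), and with IL-4 it was 2.59 ± 0.13 times (SD, n = 3).

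Promoter sequence was looked up because many members are known targets of PU.1 and because IL-4 acts through STAT6. RefSeq promoters (GRCm38.p6, the mm10 build, 250 bases before to 50 after each gene start) were found for 28 of 39 members, in 34 promoters of 32851 in all. The PU.1-type motif GAGGAAGT, searched on both strands, lay in 4 member promoters (11.8%) and in 3.20% of all promoters. Its shorter core GAGGAA, which every GAGGAAGT also contains, lay in 17 of the 34 member promoters and in 28.3% of all. The STAT6-type spacing, TTC and GAA separated by 4 bases of any kind, reads the same on both strands and lay in 4 member promoters (11.8%) and in 6.95% of all. A match is only a run of letters and no binding was measured. The members with GAGGAAGT were Vav1, Pirb, Fgd2 and Cd53, of which the first 3 were lower with IL-4 and Cd53 was higher. Those with the STAT6-type spacing were Lgals3 and Cd53, both higher, Ms4a7, lower, and Arhgdib, which did not pass the test. The upstream stretches holding a match are given below for the members that changed, 5′ to 3′ on the gene's strand with the match in capitals. Vav1 and Pirb show GAGGAAGT, and Ms4a7, Cd53 and Lgals3 show the TTC and GAA spacing, which Lgals3 holds at 2 adjacent places.
Vav1, chr17:57279049-57279099, plus strand: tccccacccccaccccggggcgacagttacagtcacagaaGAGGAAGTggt
Pirb, chr7:3720455-3720542, minus strand: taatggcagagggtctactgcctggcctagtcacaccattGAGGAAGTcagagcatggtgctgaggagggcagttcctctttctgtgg
Ms4a7, chr19:11336147-11336199, minus strand: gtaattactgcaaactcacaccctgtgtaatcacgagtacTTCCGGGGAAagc
Cd53, chr3:106790232-106790321, minus strand: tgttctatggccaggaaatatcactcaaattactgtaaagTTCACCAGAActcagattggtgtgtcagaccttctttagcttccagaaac
Lgals3, chr14:47373610-47373684, plus strand: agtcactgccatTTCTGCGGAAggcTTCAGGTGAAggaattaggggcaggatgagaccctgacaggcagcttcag

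The 10 phagocytic, scavenger and adhesion receptor genes were the most divided group, with 5 lower, 3 higher and 2 that did not pass, and a median log2 fold change of -0.40. Both class A scavenger receptors in the set were lower. Marco was at the edge of detection, with counts of 27, 23 and 44 in the controls against 3, 1 and 8 with IL-4. The log2 fold change of -2.78 (SE 0.52, edgeR adjusted p = 0.00374) rested on those few reads. Msr1, which takes up modified lipoproteins, was far more abundant at 37.7, 41.7 and 40.4 FPKM in control and 17.0, 18.2 and 16.7 FPKM after IL-4 (log2 fold change -0.96, SE 0.07, edgeR adjusted p = 2.01e-05). The groups did not overlap for either gene.

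Siglec1, the sialic acid-binding adhesion receptor CD169, and Pirb, an inhibitory receptor for MHC class I, had log2 fold changes of -0.90 (SE 0.15, edgeR adjusted p = 0.00187) and -0.93 (SE 0.09, edgeR adjusted p = 9.46e-05). Siglec1 was lower in IL-4 replicate 6, at 7.57 FPKM, than in IL-4 replicates 4 and 5, at 11.2 and 11.0 FPKM. Cd163, by contrast, the haemoglobin scavenger receptor, rose from counts of 106, 97 and 87 to 140, 183 and 156 (log2 fold change 0.88, SE 0.14, edgeR adjusted p = 0.00191). It was low throughout, at no more than 1.45 FPKM in any library. Cd84, a homotypic adhesion receptor of the SLAM family, overlapped between the groups at 29.7 to 33.6 FPKM in the controls, against 26.9 to 30.2 FPKM under IL-4 (log2 fold change 0.05, edgeR adjusted p = 0.610).

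The 2 TAM receptor tyrosine kinases in the set, which recognise dying cells through bridging proteins, differed in whether they passed the test. Mertk fell from 6.72, 6.81 and 7.28 FPKM to 3.81, 3.49 and 2.86 FPKM (log2 fold change -0.86, SE 0.11, edgeR adjusted p = 6.34e-04). Axl measured 135, 138 and 123 FPKM in the controls against 135, 132 and 124 FPKM with IL-4, so its groups overlapped, and its log2 fold change of 0.15 did not pass (edgeR adjusted p = 0.168). It passed without IL-4 replicate 6 (log2 fold change 0.21, edgeR adjusted p = 0.0244). Fibroblasts are also known to express Axl. The Axl to Mertk ratio of FPKM was 19.1 ± 1.91 in the controls and 38.8 ± 4.03 with IL-4 (SD, n = 3 each).

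Lgals3 and Gpnmb, both abundant in lipid-handling macrophages, rose, although the cells that made these transcripts cannot be told from whole-culture RNA. Lgals3, the galactose-binding lectin galectin-3, went from 337, 303 and 401 FPKM to 631, 658 and 935 FPKM, a 2.41-fold rise (log2 fold change 1.27, SE 0.16, edgeR adjusted p = 4.10e-04). All IL-4 libraries were above all controls, with IL-4 replicate 6 the highest. Gpnmb, a transmembrane glycoprotein of lysosomes, rose from 174, 156 and 179 FPKM to 225, 244 and 258 FPKM (log2 fold change 0.69, SE 0.07, edgeR adjusted p = 1.84e-04). In the controls Lgals3 stood at 0.127 ± 0.0059 of the FPKM of Lyz2, and with IL-4 it stood at 0.950 ± 0.042 of it (SD, n = 3 each). The levels of these abundant members drew together, with Lyz2 at 776 ± 141 FPKM and Lgals3 at 742 ± 168 FPKM with IL-4. Within each IL-4 library Lgals3 was the lower, at 0.938, 0.916 and 0.998 of Lyz2. Gpnmb was 1.22 ± 0.11 times Mpeg1 in the controls and 16.0 ± 1.28 times with IL-4.

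**Figure D3:**
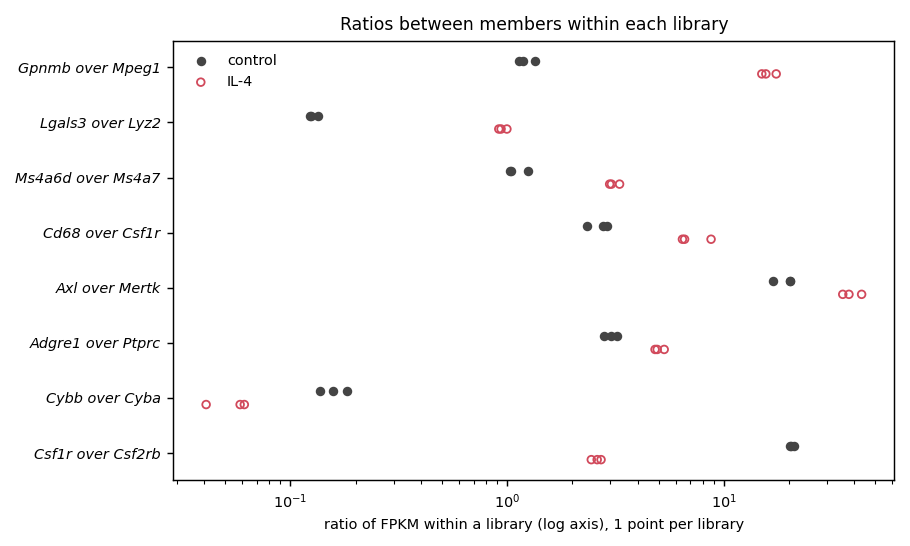
Ratio of FPKM between 2 macrophage lineage genes within the same library, on a log axis, with 1 filled point per control library and 1 open point per IL-4 library. The 8 pairs were chosen with the members' changes known and most join a member that fell with one that did not, so the gap between the groups follows from the choice. Gpnmb over Mpeg1 went from 1.22 to 16.0.

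The phagocyte NADPH oxidase makes superoxide in the phagosome. Its membrane part is a pair of subunits, gp91phox (Cybb), which carries the catalytic centre, and p22phox (Cyba), and it is switched on by cytosolic subunits that include p47phox (Ncf1) and p40phox (Ncf4), with a Rac GTPase. Of the 5 members in this group, 3 were lower and 2 did not pass, with a median log2 fold change of -0.71. Cybb fell from counts of 2709, 2951 and 2935 to 1026, 1151 and 1056 (log2 fold change -1.26, SE 0.07, edgeR adjusted p = 5.97e-06). Ncf1 had a log2 fold change of -0.71 (SE 0.09) and Rac2, the blood-cell Rac, one of -0.80 (SE 0.12). Their edgeR adjusted p-values were 4.88e-04 and 0.00115.

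Cyba, its membrane partner, did not pass the test. It measured 129, 121 and 159 FPKM in control and 129, 138 and 190 FPKM after IL-4, and the groups overlapped (log2 fold change 0.34, SE 0.15, edgeR adjusted p = 0.112). The Cybb to Cyba ratio was 0.159 ± 0.022 in the controls and 0.0536 ± 0.011 with IL-4 (SD, n = 3 each). Cyba also pairs with catalytic subunits outside phagocytes. Ncf4 overlapped as well, at 9.84 to 13.6 FPKM in the controls, against 7.42 to 10.7 FPKM under IL-4 (log2 fold change -0.18, edgeR adjusted p = 0.409). Of 6 other oxidase genes tested, 2 were lower and 2 were higher, against 18.4% and 19.0% of all genes. The lower ones included Nox4, a catalytic subunit of mesenchymal cells (log2 fold change -1.42, edgeR adjusted p = 5.01e-06). The higher ones were the dual oxidases of epithelia, Duox1, with counts of 69, 74 and 48 against 1820, 1775 and 1589, and Duox2, with counts of 0, 2 and 1 against 193, 147 and 138.

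The 10 genes of actin, GTPase and kinase signalling in blood cells fell furthest as a group, with 7 lower, none higher and 3 that did not pass, and a median log2 fold change of -1.18. All 7 that passed were beyond 2-fold, although Lyn, at a log2 fold change of -1.0, was only just so. Aif1, which encodes the actin-bundling protein IBA1 that marks macrophages and microglia, went from counts of 162, 173 and 296 to 7, 6 and 13. That 21.5-fold fall (log2 fold change -4.43, SE 0.37, edgeR adjusted p = 4.65e-05) was the steepest of any member and carried the second widest error, after Marco. Coro1a, the blood-cell coronin that binds filamentous actin, fell 16.4-fold with much smaller error, from counts of 1393, 1653 and 1933 to 84, 91 and 98 (log2 fold change -4.03, SE 0.14, edgeR adjusted p = 4.74e-07).

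Of the 3 exchange factors in the group, which load small GTPases, Fgd2 and Vav1 were lower and Dock2 did not pass. Fgd2, a Cdc42 exchange factor, fell 7.07-fold from counts of 199, 225 and 240 to 32, 26 and 26 (edgeR adjusted p = 3.75e-06). Vav1, the exchange factor of blood cells that acts mainly on Rac, fell 3.16-fold from counts of 1305, 1291 and 1490 to 346, 401 and 416 (edgeR adjusted p = 3.93e-06). No library of either gene overlapped with the other group.

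Lcp1, or L-plastin, which bundles actin in leukocytes, was the most abundant of the group at 143, 159 and 170 FPKM in the controls and fell to 60.2, 63.9 and 59.7 FPKM (log2 fold change -1.19, SE 0.08, edgeR adjusted p = 1.24e-05). Hcls1, a cortactin relative of blood cells, fell from counts of 1541, 1486 and 1764 to 595, 573 and 733 (log2 fold change -1.18, SE 0.10, edgeR adjusted p = 5.06e-05). Lyn, a SRC-family kinase downstream of many myeloid receptors, fell from counts of 2287, 2443 and 2566 to 1081, 1069 and 1117 (SE 0.06, edgeR adjusted p = 8.33e-06). These 3 genes changed by similar amounts, each with non-overlapping groups.

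The 3 genes of this group that did not pass lay near zero. Dock2, the Rac exchange factor of blood cells, had a log2 fold change of -0.03 (SE 0.07, edgeR adjusted p = 0.762), with counts of 2202 to 2400 in the controls against 1947 to 2140 with IL-4 that overlapped once normalised. Arhgdib, a GDP-dissociation inhibitor of small GTPases in blood cells, had one of 0.05 (SE 0.12, edgeR adjusted p = 0.783). Plek, or pleckstrin, a protein kinase C substrate, had one of 0.17 (SE 0.06, edgeR adjusted p = 0.0750), and it passed without IL-4 replicate 6 (edgeR adjusted p = 0.0297). Its groups did not overlap, with normalised counts of 4042 to 4513 in the controls against 4788 to 5047 with IL-4. Vav1 and Dock2, both Rac exchange factors of blood cells, thus had log2 fold changes of -1.66 and -0.03 in the same libraries.

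Of the 5 small membrane and lysosomal proteins, 3 were lower, 1 was higher and 1 did not pass, with a median log2 fold change of -0.61. Laptm5, a lysosomal membrane protein of blood cells, fell from 183, 178 and 207 FPKM to 103, 109 and 118 FPKM (log2 fold change -0.61, SE 0.07, edgeR adjusted p = 3.96e-04). Cd52, a short glycosylphosphatidylinositol-anchored peptide, had a log2 fold change of -0.82 (SE 0.15, edgeR adjusted p = 0.00367). The tetraspanin Cd53, in contrast, rose from 30.8, 33.2 and 37.6 FPKM to 49.1, 52.1 and 61.2 FPKM (log2 fold change 0.85, SE 0.10, edgeR adjusted p = 2.58e-04). Cd53 and Ptprc are both general leukocyte surface genes, and their log2 fold changes were 0.85 and -0.99.

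The 2 four-span MS4A genes also differed in whether they passed. Ms4a7 fell from counts of 1775, 1725 and 2506 to 627, 624 and 764 (log2 fold change -1.42, SE 0.15, edgeR adjusted p = 1.56e-04). Ms4a6d had counts of 1962, 2284 and 2751 in control and 1973, 2002 and 2668 after IL-4, and the groups overlapped (log2 fold change 0.08, SE 0.14, edgeR adjusted p = 0.708). Its FPKM was 1.11 ± 0.12 times that of Ms4a7 in the controls and 3.10 ± 0.18 times with IL-4 (SD, n = 3 each).

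Some members have close relatives whose reads the deposited estimates could split, and 6 of 39 had fractional counts in at least 1 library. Lyz2 and its tandem copy Lyz1 fell alike, with log2 fold changes of -1.64 and -1.67, at 69676 to 91410 and 5120 to 7435 control counts. Csf2rb and its mouse-specific copy Csf2rb2 both rose, by log2 fold changes of 1.94 and 2.49 (edgeR adjusted p = 3.16e-07 for Csf2rb2). Pirb, Pira2 and Pira6 fell together at log2 fold changes of -0.93, -0.80 and -0.80, and in these 3 families each relative moved in the direction of the member. Ms4a6d held whole counts in every library, while its neighbours Ms4a6b and Ms4a6c had log2 fold changes of -2.52 and -0.94 (edgeR adjusted p = 7.69e-06 and 9.85e-04).

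Genes with related roles were divided too, and for scale beside the counts below, 18.4% of all genes were lower and 19.0% higher. Of 43 other leukocyte signalling genes, 33 were lower, 3 were higher and 7 did not pass, and their median log2 fold change was -0.80, equal to that of the members at this rounding. Itgal, the alpha chain of the integrin LFA-1, and the adaptor Fyb had log2 fold changes of -4.63 and -1.94. Itgal had only 6, 8 and 6 counts with IL-4. Itgax, the integrin chain CD11c, rose from counts of 190, 205 and 152 to 2754, 3014 and 2853 (log2 fold change 4.13, edgeR adjusted p = 1.99e-07). Of 21 tested relatives of members that are expressed in many cell types, 3 were lower and 7 were higher, with a median of -0.03. The relative of Aif1, Aif1l, had counts of 80, 111 and 103 against 3590, 3734 and 4087, a log2 fold change of 5.43 (edgeR adjusted p = 7.66e-08) where that of Aif1 was -4.43.

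In the colony-stimulating factor axis, 6 of 8 tested genes were higher, against 19.0% of all genes, and none lower. Their median log2 fold change was 0.48. The higher genes included Csf2rb2, with fractional counts in 6 libraries, Kitl, encoding stem cell factor (2.29), and the IL-3 receptor chain Il3ra (0.98). Kit (0.56) passed only narrowly (edgeR adjusted p = 0.0454). Of 17 myeloid transcription factors tested, 7 were lower and 8 were higher, with a median of 0.30. Irf4, known as a partner of PU.1, and Tfec, a relative of MITF, had log2 fold changes of 3.72 and 1.43. Irf4 was low throughout, at no more than 1.02 FPKM in any library. Bhlhe41 and Runx3 had log2 fold changes of -1.85 and -1.42. Among 18 tested TAM ligands and other uptake receptors, 5 were lower and 8 were higher, with a median of 0.24. Stab1, a scavenger receptor, fell (-1.79), and Cd36 and Scara5 rose (1.48 and 3.34), with Scara5 at no more than 1.73 FPKM in any library.

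Markers of other cell types were read beside these changes, with 18.4% of all genes lower and 19.0% higher for scale. Of 12 AP markers, 8 were higher, Pdgfrb and Lum were lower (log2 fold changes of -0.66 and -0.61), and Thy1 and Dpp4 did not pass the test. Their summed FPKM was 8813 to 9225 in the controls, against 12274 to 13356 under IL-4. The collagen genes Col1a1, Col1a2 and Col3a1 made up 88.5% to 91.3% of that sum, and Col3a1 alone went from 2151 to 2201 FPKM to 4818 to 5178 FPKM. Without these 3 genes the sum was 977 to 1024 FPKM against 1155 to 1288 FPKM. The members' summed FPKM was 4811 to 5995 in the controls, against 2806 to 3669 under IL-4. Without Lyz2 it was 2342 to 2770 FPKM against 2133 to 2732 FPKM, and the groups overlapped. Whether the change in AP markers had a part in the members' changes was not tested. The 8 endothelial markers summed to 14.3 to 14.98 FPKM and 15.1 to 17.3 FPKM, with 3 of 8 lower and 2 higher. That sum held opposite moves. The lower ones included Cdh5 and Tie1 (log2 fold changes of -1.60 and -1.16), and the higher ones were Vwf and Tek (3.08 and 0.81). Of the 10 T and NK cell markers, Cd3d, Cd3e, Cd3g, Trbc2 and Ncr1 were at 0 in every library, and the sum was 2.03 to 2.35 FPKM against 0.96 to 1.34 FPKM, with Cd4 and Lck lower of 3 tested. The 6 B cell markers summed to at most 0.11 FPKM. The 8 neutrophil markers reached at most 1.68 FPKM, with Ngp and Retnlg at 0. The 7 dendritic cell markers reached at most 1.74 FPKM, with Siglech at 0. The 5 eosinophil markers reached at most 0.35 FPKM, with Epx at 0, and the 6 adipocyte markers at most 0.41 FPKM, with Cidec and Lep at 0. The 8 mast cell markers went from 0.09 to 0.17 FPKM in the controls to 1.22 to 2.34 FPKM with IL-4, with Fcer1a at 0 in all libraries. The 1 mast cell marker that passed the filter was Tpsab1, with counts of 0, 3 and 0 against 31, 46 and 54.

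**Figure D4:**
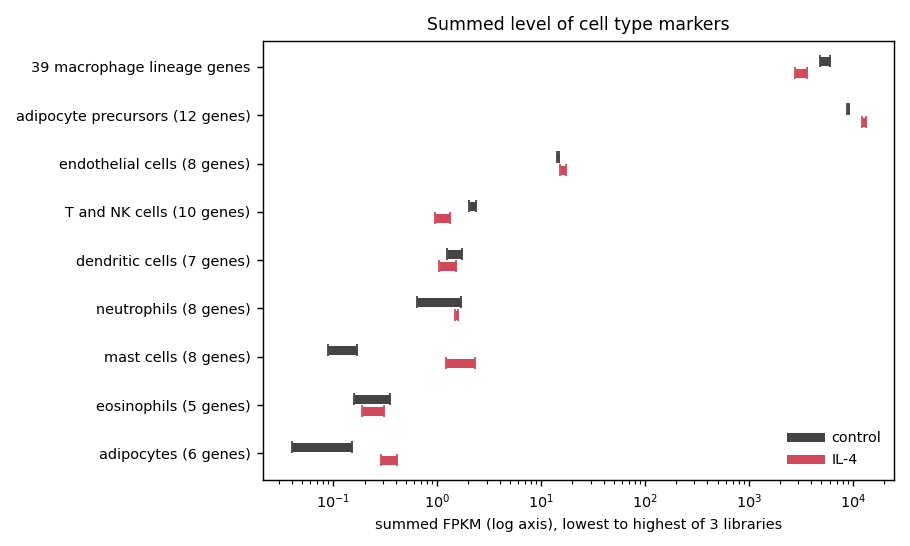
Summed FPKM of the 39 macrophage lineage genes and of marker lists for other cell types on a log axis, with bars from the lowest to the highest of the 3 control and the 3 IL-4 libraries. The members, with Lyz2 included, and the AP markers lie far above the other lists in both groups, and the T and NK, dendritic, neutrophil, mast, eosinophil and adipocyte lists lie at or below 2.35 FPKM.

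The libraries were uneven within both groups. Totals were close, at 28526782 to 28674604 counts in the controls against 28914003 to 29057787 with IL-4. Control replicate 3 and IL-4 replicate 6, however, stood higher for short transcripts and lower for long ones. In the fifth of genes with the shortest transcripts, their median log2 levels were 0.14 and 0.29 above the other libraries of their group, and in the fifth with the longest they were 0.15 and 0.32 below (-0.15 and -0.32). Of 39 members, 33 had their highest normalised control count in control replicate 3 and 23 had their highest normalised IL-4 count in IL-4 replicate 6. The matching shares of all genes were not computed. Members with long transcripts were among both counts, and whether transcript length had a part in them was not tested. Without both libraries, 24 members were still lower and 10 rather than 5 were higher. An offset for each library's own trend with transcript length gave the same 2 counts. The added genes in both cases were Cd68, Cyba, Axl, Csf2ra and Plek, with log2 fold changes of 0.15 to 0.38 without the 2 libraries.

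Small RNA from separate cultures at 2 days gave a readout outside the mRNA libraries. The microRNAs miR-142a and miR-223, both known for blood cells, were looked up, and their mature forms are shown with the seed (bases 2 to 8), the part that pairs with targets, in capitals. The sequences are from RefSeq, build GRCm38.p6, and the 3 seeds differ.
miR-142a-5p, chr11:87756867-87756887, plus strand: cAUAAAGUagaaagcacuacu
miR-142a-3p, chr11:87756903-87756925, plus strand: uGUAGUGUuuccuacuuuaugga
miR-223-3p, chrX:96242884-96242905, plus strand: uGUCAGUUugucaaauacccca
Counts were per precursor, so the arms of miR-142a were not separated. The miR-142a precursor was read 9 and 22 times in control and 22 and 21 times after IL-4, out of totals of 29165188 and 39779163 and of 34082109 and 39978023 reads. The groups overlapped. The myeloid miR-223 precursor was read 1 and 3 times in control and not at all in either IL-4 library (0 and 0), where a count of 0 allows up to 3 reads by counting error alone. The mir-150 precursor, known for lymphocytes, was also looked up and had 12 and 13 reads in control and 10 and 8 after IL-4. The miR-142a reads were thus few and of a similar order. The fibroblast-rich mir-199a-1 precursor, for scale, had 1301239 and 1798965 reads against 1632742 and 1895887. With 2 libraries per group no test was made, and the day, the culture and the type of library cannot be told apart from the mRNA result.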

How the data were processed

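Per the labels, the authors worked on build mm10 and deposited, for each of 3 control and 3 IL-4 libraries, an expected count and an FPKM per gene. The submitters' processing notes name HISAT, StringTie, Bowtie2 and RSEM without versions or roles. The deposited small RNA tables hold read counts per precursor in 2 and 2 libraries. A gene without a row in a library was taken as 0. Expected counts were rounded, 1 row without a gene name (at most 0.000225% of a library) was left out, and genes were filtered (filterByExpr, minimum count 10), TMM-scaled and tested with edgeR 4.0.16 (quasi-likelihood, group only, R 4.3.3) with Benjamini-Hochberg adjustment over 14009 genes. The scripts were tested on simulated data. Normalised counts are TMM-scaled, FPKM is used for levels between genes, and folds come from the fit. FPKM ratios, marker sums, promoter matches and microRNA reads received no test.

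The 39 members, the gene lists, the ratio pairs and the tests were chosen with earlier results of these data known. All members are accounted for. Per-library values are given for members past adjusted p 0.05 and beyond a log2 fold change of 1, the 5 highest in FPKM, those with few counts, and Csf1r, Adgre1, Cd68, Spi1 and Ptprc, with others added where a result turned on them. At most 4 genes of each other list are named, those with the largest change at a mean of 50 or more normalised counts, and some of these are not reported here. Outside that limit, markers at 0 in every library are named, and the small RNA readout and the markers Tpsab1, Cd4, Lck, Pdgfrb, Lum, Thy1, Dpp4, Col1a1 and Col1a2 were added after their values were seen. The alternatives were DESeq2 1.42.0, upper-quartile scaling, library totals, no filter, limma 3.58.1 with FPKM on a log2 scale at a pseudocount of 1 or 0.1, and each library left out in turn. A protein comparison of near-identical relatives was not analysed here. The depth of each library is given with the results, and small RNA limits cover counting error only.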

Additional observations from a re-analysis of the deposited data

How the results depend on the processing

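No paired analysis was possible because the mRNA labels number the controls 1 to 3 and the IL-4 cultures 4 to 6, and the small RNA values come from no test. Across the other scalings, models, filters and left-out libraries the members lower with IL-4 numbered 22 to 25 and those higher 5 to 7, and no member that passed the test changed direction. Members lower beyond 2-fold numbered 11 to 18 and members higher beyond 2-fold 2. In 2 alternatives chosen after seeing the data, both libraries with a shifted length trend left out and an offset for transcript length, the count of higher members was 10 in each, and the cause was not tested. Only members that did not pass the test changed sign. Under library totals, which move the median of all genes to -0.17, the log2 fold changes were -0.12 for Cd84, -0.094 for Ms4a6d, -0.022 for Axl, -0.12 for Arhgdib and -0.0057 for Plek, all above that median. With limma on log2(FPKM + 1), where the median of all genes is -0.13, they were -0.12, -0.094, -0.021, -0.12 and -0.0048 in the same order, and on log2(FPKM + 0.1), where it is -0.17, they were -0.12, -0.096, -0.021, -0.12 and -0.0049. With the length offset Ms4a6d was at -0.0024, Arhgdib at -0.051 and Dock2 at 0.061, and Dock2 was at 0.034 without both libraries. Leaving out 1 library at a time gave -0.054 to 0.20 for Ms4a6d, -0.080 to 0.14 for Arhgdib and -0.068 to 0.020 for Dock2. Dock2 passed as lower under library totals (-0.20) and on log2(FPKM + 1) (-0.19), and Cd68 passed as higher with DESeq2 and without the filter on low counts. Marco, with few reads, ranged from -3.72 to -2.33 with 1 library left out at a time. With limma it was at -0.55 on log2(FPKM + 1) and at -2.0 on log2(FPKM + 0.1), so its size depended on the pseudocount.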
